A study of Homo sapiens with 9 samples.

Results

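MDM2, MDM4 and 7 target genes of the tumour suppressor p53 were followed in ACHN cells, a human renal cell adenocarcinoma line, treated with the respiratory complex I inhibitor piericidin A. The 9 genes (MDM2, MDM4, CDKN1A, BTG2, ZMAT3, TP53INP1, POLH, DDB2 and SESN1) were found by symbol among the 18859 genes of the deposited log2 table, and each symbol matched 1 gene. They and the gene lists below were chosen with earlier results of these data known. RNA was sequenced from 9 libraries, 3 each of cells in MEM medium given 0.1% DMSO or piericidin A at 25 nM or 50 nM. The labels name no genetic change in any group, do not give the length of treatment and leave unsaid if DMSO was also present with piericidin A. The libraries of a group are not stated to be separate cultures, so the p-values measure the spread between these libraries, which may be technical. The series was made to explore how piericidin A acts against renal cell carcinoma.

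p53 is a transcription factor that accumulates in stressed cells and switches on genes for cell cycle arrest, DNA repair, metabolism and cell death. MDM2 is the ubiquitin ligase that marks p53 for destruction and is itself a p53 target, which closes a feedback loop. Its relative MDM4 binds and restrains p53 and pairs with MDM2, and is controlled largely by splicing and protein turnover. Many p53 targets also answer to other factors, so their messenger RNA levels are not a direct measure of p53 activity.

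Some p53 targets carry their p53 site beside an internal start site. RefSeq promoter windows (build GRCh38.p14, from 250 bases before to 50 bases after a start site) were found for 8 of the 9 genes, 15 windows in all. The strand of the gene was searched for the p53 consensus, a palindrome of 20 bases made of a pair of decamers with no gap between them. Because it is a palindrome, this search also covers the other strand. Up to 3 mismatches were allowed, with C fixed at position 4 and G at position 7 of each decamer. Of the 15 windows 4 had a match, 1 each of DDB2 and SESN1 and 2 overlapping windows of MDM2 that hold the same site, compared with 1.12% of all 35116 windows of this length. The stretches with these matches are all shown, whatever the course of the gene. MDM2 fell less at the higher dose, DDB2 rose, and the fall of SESN1 did not differ detectably between the doses. A link between a match and these courses was not tested. Capitals mark the match.
MDM2, chr12:68808783-68808982, plus strand: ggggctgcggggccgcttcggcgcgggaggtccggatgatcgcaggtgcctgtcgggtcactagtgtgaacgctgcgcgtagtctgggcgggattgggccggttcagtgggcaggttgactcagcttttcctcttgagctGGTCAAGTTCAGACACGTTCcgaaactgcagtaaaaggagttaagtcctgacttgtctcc
SESN1, chr6:109008989-109009177, minus strand: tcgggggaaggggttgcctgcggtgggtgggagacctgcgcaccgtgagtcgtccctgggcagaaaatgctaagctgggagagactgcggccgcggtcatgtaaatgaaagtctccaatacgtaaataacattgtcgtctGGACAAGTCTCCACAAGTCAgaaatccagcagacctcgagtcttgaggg
DDB2, chr11:47214964-47214993, plus strand: gctccAAGCTGGTTTGAACAAGCCCtgggc
The MDM2 match had 2 mismatches and lay in intron 1, at -94 to -75 from the start site at position 68809017. The SESN1 match had 3 mismatches and lay in intron 1 of the longest transcript, at -49 to -30 from the start site at position 109008988. The DDB2 match had 1 mismatch, spanned the start site at position 47214974 from -5 to 15 and fell in exon 1. A match is a description of sequence only, and the absence of one in the other windows says nothing about p53 binding elsewhere in those genes. Gene values below sum all transcripts, so use of an internal start site was not measured.

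Levels are deposited FPKM, fragments scaled to gene length and to library depth, and a log2 fold change is a difference of log2(FPKM + 0.1) given with its limma standard error (SE). Adjusted p-values are Benjamini-Hochberg values over all 15541 tested genes, and a gene was called at an adjusted p under 0.05. Libraries held 24365472 to 29245674 recovered fragments. Genes above 0 FPKM numbered 25482 to 26388 in the 50 nM libraries and 23641 to 24653 in the others. The 25 nM replicate 3 stood apart in its sum of FPKM (310119, against 249274 to 293816 in the others). Without it the calls against DMSO were again 2 of the 9 genes higher and 6 lower. Of 12 renal epithelial and carcinoma markers, 11 were above 1 FPKM in all 9 libraries, and CDH6 was not listed. Of 5 leukocyte markers 2 were listed (CD14 and LYZ) and of 4 endothelial markers 3 (PECAM1, VWF and CDH5), with sums of at most 0.201 and 0.0303 FPKM in any library. The 5 fibroblast markers, of which COL1A1 alone was above 1 FPKM in every library, summed to 2.54 to 2.67 FPKM in DMSO, 2.32 to 2.66 at 25 nM and 3.11 to 3.99 at 50 nM. The 11 epithelial markers summed to 1047 to 1072 FPKM in DMSO, 984 to 1080 at 25 nM and 858 to 903 at 50 nM. The part of either list in the results was not tested. In bulk RNA, fewer cells expressing a gene and less RNA per cell cannot be told apart.

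At 25 nM, 2 of the 9 genes were called higher than in DMSO, 6 lower and 1 (MDM4) was not called, while 52.0% of all tested genes were called, 26.3% higher and 25.8% lower. At 50 nM, 3 were called higher and 6 lower, with 60.7% of all tested genes called, 29.2% higher and 31.5% lower. The median log2 fold change of the 9 genes was -0.85 at 25 nM and -0.62 at 50 nM, against 0.02 and 0.0049 over all tested genes. The libraries of the groups did not overlap in 8 of the 9 genes at 25 nM and in all 9 at 50 nM, compared with 62.6% and 70.4% of tested genes. Both comparisons share the 3 DMSO libraries. Because the 9 genes were chosen with earlier results of these data known, these counts and medians only describe them.

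**Figure D1:**
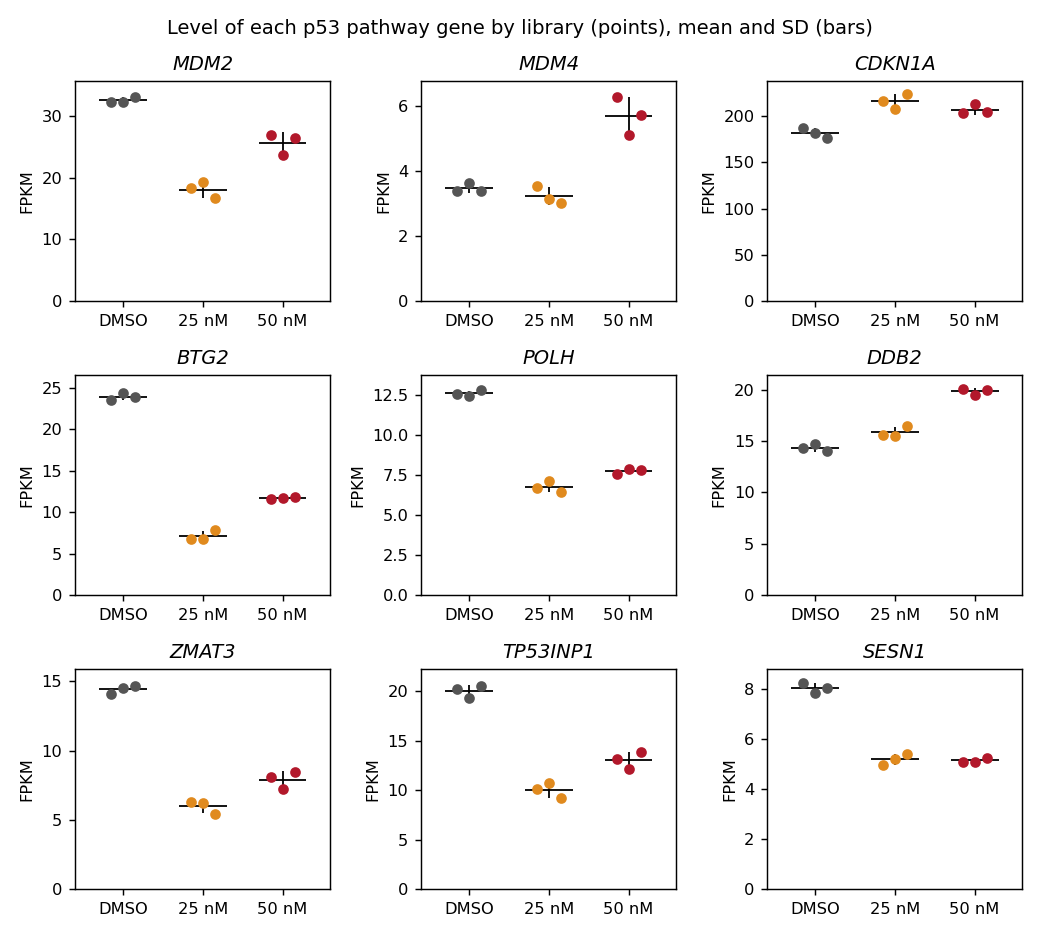
FPKM of each of the 9 genes (vertical axis, linear, from 0) in the 3 libraries of DMSO, 25 nM and 50 nM piericidin A; points are libraries, horizontal bars the mean and vertical bars the SD. MDM2, BTG2, ZMAT3, TP53INP1 and POLH were lowest at 25 nM and stood between DMSO and 25 nM at 50 nM, while MDM4 was high at 50 nM alone.

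MDM2 (ENSG00000135679, chromosome 12, 68808172-68850686) fell most at the lower dose. Its level was 32.2, 32.3 and 33.1 FPKM in the DMSO libraries, 18.2, 19.3 and 16.6 at 25 nM and 26.8, 23.7 and 26.4 at 50 nM. All 25 nM libraries lay below all 50 nM libraries, which lay below all DMSO libraries. The mean at 25 nM was 55.6% of that in DMSO (log2 fold change -0.85, SE 0.06, adjusted p = 1.66e-05). With 50 nM it was 78.9% (log2 fold change -0.34, SE 0.06, adjusted p = 0.00143). The higher dose stood above the lower by 0.50 on the log2 scale (SE 0.06, adjusted p = 0.00076).

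MDM4 (ENSG00000198625, chromosome 1, 204516379-204558120) did not share this course. It stood at 3.38, 3.62 and 3.37 FPKM in DMSO and at 3.54, 3.13 and 3.00 at 25 nM, where the groups overlapped. At 50 nM it was 6.26, 5.11 and 5.71 FPKM, above every library of the other groups. The change was not called at 25 nM (log2 fold change -0.10, SE 0.09, adjusted p = 0.357). MDM4 rose at 50 nM against DMSO (log2 fold change 0.70, SE 0.09, adjusted p = 0.00012) and against 25 nM (0.80, SE 0.09, adjusted p = 0.000411). Of all tested genes, 83.3% had a lower log2 fold change than MDM4 at 50 nM against DMSO, and 92.0% against 25 nM.

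Within a library, where scaling between libraries plays no part, the FPKM ratio of MDM4 to MDM2 was 0.106 ± 0.00533 in DMSO, 0.179 ± 0.0161 with 25 nM and 0.222 ± 0.0101 with 50 nM (SD, n = 3). The ratio was thus 1.68-fold higher at 25 nM, where MDM2 was low, and 2.08-fold higher at 50 nM, where MDM4 was high as well. No library of a group overlapped another group, and each difference had an exact two-sided permutation p of 0.1, the smallest that 3 against 3 libraries allow. The ratio of MDM2 to CDKN1A was 0.179 ± 0.00788, 0.0839 ± 0.0094 and 0.124 ± 0.0114 in the same order. It fell to 0.466 of its DMSO value at 25 nM and to 0.692 at 50 nM as a geometric mean, and every pairwise exact permutation test again gave 0.1.

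**Figure D2:**
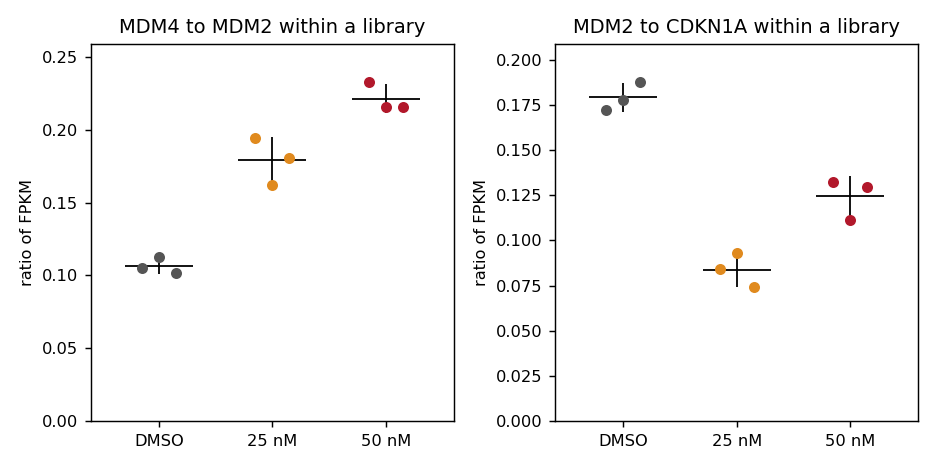
Ratio of FPKM within each library (vertical axis, from 0) for MDM4 to MDM2 (left) and MDM2 to CDKN1A (right) by group; points are libraries, bars the mean and SD. The MDM4 to MDM2 ratio is highest at 50 nM (0.222), and the MDM2 to CDKN1A ratio is lowest at 25 nM (0.0839).

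Among the genes of cell cycle arrest, CDKN1A and BTG2 moved in opposite directions. CDKN1A (ENSG00000124762, chromosome 6, 36676460-36687339) encodes p21, the inhibitor of cyclin-dependent kinases through which p53 halts the cycle. It was the most abundant of the 9 genes, above 98.9% of tested genes in DMSO. The DMSO libraries had 187, 181 and 176 FPKM, the 25 nM libraries 216, 208 and 224, and the 50 nM libraries 203, 213 and 204. All treated libraries lay above all DMSO libraries, and the doses overlapped. The rise was small at 25 nM (log2 fold change 0.25, SE 0.04, adjusted p = 0.00133) and at 50 nM (0.19, SE 0.04, adjusted p = 0.00498). The doses were not told apart (log2 difference -0.06, SE 0.04, adjusted p = 0.292). With quantile normalization the value at 25 nM was 0.06 and not called (adjusted p = 0.185).

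BTG2 (ENSG00000159388, chromosome 1, 203305491-203309602), an antiproliferative protein that recruits the deadenylase complex to messenger RNA, had the largest change. It stood at 23.5, 24.4 and 23.9 FPKM in DMSO, 6.74, 6.75 and 7.89 at 25 nM and 11.6, 11.7 and 11.8 at 50 nM. These groups were far apart, with means of 29.8% and 48.9% of DMSO. The log2 fold change was -1.74 at 25 nM (SE 0.06, adjusted p = 4.8e-07) and -1.03 at 50 nM (SE 0.06, adjusted p = 1.92e-06). Between the doses it was 0.71 (SE 0.06, adjusted p = 0.000216). BTG2 and CDKN1A are both in the shortest quartile of coding genes by length of the authors' gene model, whose median log2 fold change was 0.19 at 25 nM.

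The relatives of BTG2 in the BTG and TOB family, which bind the same deadenylase, were taken from the list of relatives and partners of the 9 genes. BTG1 fell (-0.47 at 25 nM and -0.73 at 50 nM on the log2 scale), as did TOB1 (-0.64 and -0.69) and TOB2 (-0.56 and -0.54). BTG3, named after its values were seen, rose (0.36 and 0.23). BTG4, also named after its values were seen, was low (means of 0.908, 0.948 and 0.813 FPKM) and was not called (0.04 and -0.17, adjusted p = 0.905 and 0.538). For p21, the target kinase gene CDK2 rose (0.71 and 0.61) and the cyclin gene CCND2 fell (-0.68 and -0.32).

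Both genes of the p53 response that serve growth control and RNA stability or autophagy, ZMAT3 and TP53INP1, fell in parallel with MDM2. ZMAT3 (ENSG00000172667, chromosome 3, 179017223-179072279) encodes an RNA-binding zinc finger protein. Its level was 14.1, 14.5 and 14.6 FPKM in DMSO, 6.27, 6.23 and 5.44 at 25 nM and 8.06, 7.196 and 8.45 at 50 nM. No groups overlapped, and the log2 fold changes were -1.26 (SE 0.07, adjusted p = 4.24e-06) and -0.86 (SE 0.07, adjusted p = 1.23e-05). The higher dose stood 0.40 above the lower (SE 0.07, adjusted p = 0.00352).

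TP53INP1 (ENSG00000164938, chromosome 8, 94925972-94949411) encodes a stress protein of the nucleus and of autophagosomes. It was measured at 20.3, 19.4 and 20.5 FPKM in DMSO, 10.1, 10.7 and 9.20 at 25 nM and 13.2, 12.1 and 13.8 at 50 nM. Again no groups overlapped. Its mean was 49.9% of DMSO at 25 nM (log2 fold change -0.998, SE 0.07, adjusted p = 8.34e-06) and 64.9% at 50 nM (-0.62, SE 0.07, adjusted p = 4.93e-05). The doses differed by 0.38 (SE 0.07, adjusted p = 0.00294).

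The DNA repair genes POLH and DDB2 went in opposite directions. POLH (ENSG00000170734, chromosome 6, 43576150-43615660) encodes polymerase eta, which copies past ultraviolet lesions. It stood at 12.6, 12.5 and 12.8 FPKM in DMSO, 6.73, 7.11 and 6.48 at 25 nM and 7.59, 7.88 and 7.86 at 50 nM. Every treated library lay below every DMSO library, and the doses differed less from each other than from DMSO. The log2 fold change was -0.89 at 25 nM (SE 0.04, adjusted p = 2.13e-06), -0.69 at 50 nM (SE 0.04, adjusted p = 3.3e-06) and 0.20 between the doses (SE 0.04, adjusted p = 0.00985).

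DDB2 (ENSG00000134574, chromosome 11, 47214465-47239240) encodes the subunit that recognises ultraviolet lesions for nucleotide excision repair. It was the only one of the 9 genes whose mean rose at each step, from 14.3, 14.7 and 14.0001 FPKM in DMSO to 15.6, 15.5 and 16.5 at 25 nM and 20.05, 19.52 and 19.96 at 50 nM. No groups overlapped. The rise at 25 nM was small (log2 fold change 0.14, SE 0.04, adjusted p = 0.0127) and was not called without DMSO replicate 3 (0.13, adjusted p = 0.056). At 50 nM it was 0.47 (SE 0.04, adjusted p = 1.26e-05), and 0.32 above 25 nM (SE 0.04, adjusted p = 0.000622). Of all tested genes, 76.3% had a lower log2 fold change than DDB2 at 50 nM against DMSO.

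Among partners of DDB2 in excision repair, the helicase gene ERCC3 rose (0.29 and 0.46 on the log2 scale at 25 and 50 nM), and the cullin gene CUL4B fell (-0.29 and -0.63). Chosen after their values were seen, DDB1 had -0.08 (not called, adjusted p = 0.151) and -0.29 (called), and the lesion sensor XPC fell (-0.29 and -0.36). UBE2A, which acts with RAD18 upstream of translesion polymerases such as that of POLH, rose (0.65 and 0.50). The other translesion genes of the list, added after their values were seen, were mixed. UBE2B (0.33 and 0.21) and MAD2L2 (0.39 and 0.22) rose, whereas POLI (-0.52 and -0.38), POLK (-0.34 and -0.51) and REV3L (-0.96 and -0.53) fell. RAD18 (-0.06 and -0.29) and REV1 (-0.15 and -0.02) were not called at either dose.

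SESN1 (ENSG00000080546, chromosome 6, 108986437-109094819), a sestrin that restrains the growth kinase complex mTORC1, fell at either dose. It was 8.24, 7.87 and 8.08 FPKM in DMSO, 4.99, 5.21 and 5.42 at 25 nM and 5.08, 5.11 and 5.27 at 50 nM. Treated and DMSO libraries did not overlap, whereas the doses did. The log2 fold changes were -0.62 (SE 0.05, adjusted p = 1.61e-05) and -0.64 (SE 0.05, adjusted p = 6.08e-06), and the doses differed by -0.01 (SE 0.05, adjusted p = 0.839). Its relative SESN2, chosen after its values were seen, fell less (-0.29 and -0.34), and SESN3 was too low to test, with means of 0.411, 0.186 and 0.171 FPKM in the 3 groups.

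**Figure D3:**
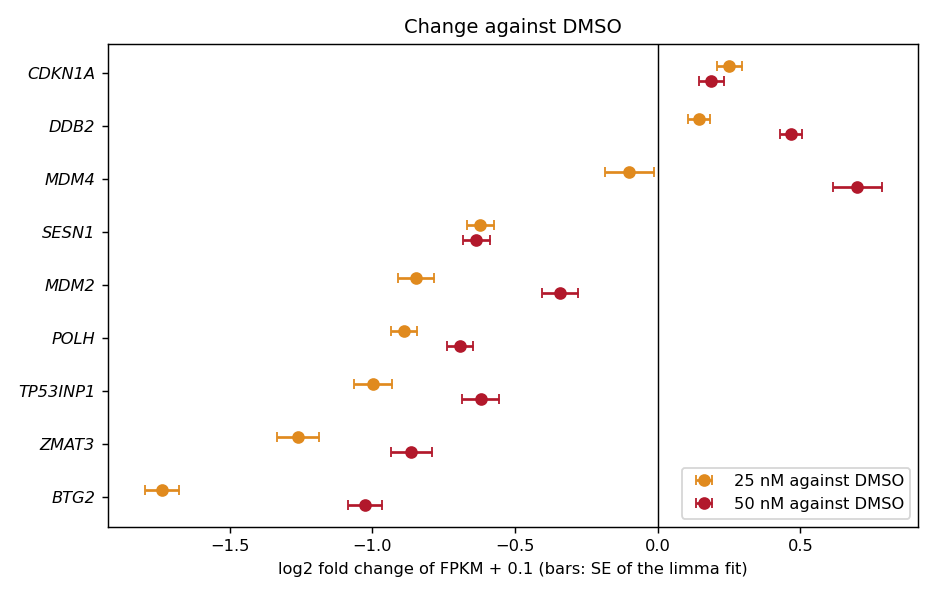
Log2 fold change of FPKM + 0.1 against DMSO (horizontal axis) for the 9 genes, at 25 nM and 50 nM; bars are the limma SE. MDM2, BTG2, ZMAT3, TP53INP1 and POLH lie farther below 0 at 25 nM than at 50 nM, SESN1 lies at -0.62 and -0.64, and MDM4 is clearly above 0 at 50 nM alone.

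The direct comparison of the doses asked where 50 nM differed from 25 nM. Of the 9 genes, 7 were higher at 50 nM, none was lower, and CDKN1A and SESN1 were not called, while 33.5% of all tested genes were called, 14.7% higher and 18.8% lower. By scaling to fragment totals, the 2288 higher and 2917 lower genes of that background became 3153 and 1358. The 7 genes were those that had fallen furthest at 25 nM and stood higher at 50 nM (MDM2, BTG2, ZMAT3, TP53INP1 and POLH) and those highest at 50 nM (MDM4 and DDB2). For the 7 genes, the log2 difference was between 0.17 and 0.90 under the alternatives tried. Libraries of the doses did not overlap in 7 of the 9 genes, compared with 45.4% of tested genes. The 55 other p53 target genes described below did not share this course. At 50 nM against 25 nM, 4 of them were called higher, 15 lower and 36 were not called. These were 7.27% higher and 27.3% lower, beside the 14.7% and 18.8% of all tested genes, with a median of -0.06. The counts of the 55 genes between the doses were not recomputed under the alternatives.

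Correlations of log2(FPKM + 0.1) over the 9 libraries describe how alike these courses were, and the libraries share their groups. ZMAT3 and TP53INP1 were the most alike (Pearson r = 0.995), and MDM2 had r = 0.967 with TP53INP1, 0.946 with ZMAT3 and 0.943 with BTG2. MDM4 had r = 0.242 with MDM2 and 0.877 with DDB2. CDKN1A was opposite to MDM2 (r = -0.916). As background, 136 of 11721 other coding genes had r above 0.95 with MDM2, 56 with MDM4, 301 with CDKN1A, 191 with BTG2, 368 with ZMAT3, 307 with TP53INP1, 509 with POLH, 305 with DDB2 and 559 with SESN1. The nearest coding genes to MDM2 were KIAA0895 (r = 0.995), DLG1 (0.992) and YTHDC1 (0.992), and to MDM4 DMTF1 (0.990), NAPB (0.989) and WDFY2 (0.984). Nearest to CDKN1A were DDX49 (0.995), EIF2B1 (0.993) and IFITM2 (0.990), and to BTG2 IRGQ (0.998), ZCCHC3 (0.998) and IER2 (0.994). ZMAT3 was nearest to C16orf72 (0.997), ZKSCAN1 (0.996) and SMURF2 (0.995), and TP53INP1 to C16orf72 (0.997), TLE4 (0.997) and FBXL20 (0.996). POLH was nearest to AGAP1 (0.998), FAM168B (0.997) and C6orf62 (0.996), DDB2 to HOOK2 (0.993), C14orf159 (0.992) and METTL22 (0.991), and SESN1 to DNAJC5 (0.997), ZNF398 (0.997) and PPP1R3G (0.996). DMTF1, a cyclin D-binding factor that activates the p53 pathway, went from 4.48 to 4.24 and 6.53 FPKM.

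Further p53 targets were counted in the same way. Of 55 other target genes, all tested, 15 rose and 26 fell at 25 nM, and 13 rose and 30 fell at 50 nM. The shares that rose were 27.3% and 23.6%, near or below the 26.3% and 29.2% of all tested genes. The shares that fell were 47.3% and 54.5%, beside 25.8% and 31.5%, and the median log2 fold changes were -0.14 and -0.21. Counts ranged from 20 to 27 lower at 25 nM with 1 library left out. Those that rose with the smallest p included the apoptosis gene BAX, from 50.8 ± 1.24 FPKM to 75.1 ± 7.65 and 78.1 ± 0.864 (SD, n = 3; log2 fold change 0.56 and 0.62). PIDD1, a death domain protein of the caspase-2 platform, rose (0.79 and 1.32), as did the stress sensor GADD45A (0.54 and 0.46), the secreted stress cytokine GDF15 (0.63 and 0.29) and the quinone reductase TP53I3 (0.47 and 0.66). Among genes that fell with the smallest p was PPM1D, the phosphatase that dampens the p53 response and like MDM2 is a target acting in feedback (-0.51 and -0.69). The decoy death receptor TNFRSF10D fell (-1.18 and -0.95), as did the metastasis suppressor CD82 (-0.62 and -0.72), the growth factor TGFA (-0.50 and -0.93) and the autophagy gene DRAM1 (-0.37 and -0.57).

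Of the 42 genes of a list on the regulation of p53, without MDM2 and MDM4, 39 were tested, 9 rose and 18 fell at 25 nM, and 5 rose and 18 fell at 50 nM (medians -0.14 and -0.16). The shares that rose were 23.1% and 12.8%, below the 26.3% and 29.2% of all tested genes, and the shares that fell were 46.2% at either dose, beside 25.8% and 31.5%. USP7, the deubiquitinase that stabilises MDM2 and p53, went from 15.7 ± 0.0929 FPKM to 8.62 ± 0.167 and 9.95 ± 0.133 (SD, n = 3; -0.86, adjusted p = 8.26e-07, and -0.65). The p53 ubiquitin ligase genes RCHY1 (-0.98 and -1.03), UBE4B (-0.63 and -0.36), RFWD2 (-0.44 and -0.32) and TRIM24 (-0.35 and -0.55) fell, as did the deubiquitinase gene USP10 (-0.14 and -0.34). The p53 methyltransferase KMT5A (0.49 and 0.58), the kinase CHEK2 (0.29 and 0.31), the deacetylase HDAC1 (0.20 and 0.27) and the ribosomal protein RPL11, which binds MDM2 (0.51 and 0.30), rose. RPS27A rose at 25 nM (0.30), though not with quantile normalization (-0.0084), and was not called at 50 nM (-0.01, adjusted p = 0.874). The acetyltransferase KAT8 rose at 50 nM (0.44), and its call at 25 nM (0.19) was lost under 9 of 15 alternatives. Of 60 relatives and partners, 56 were tested, 16 rose and 16 fell at 25 nM, and 16 rose and 23 fell at 50 nM (medians 0.02 and -0.10), with SEC13 (0.46 and 0.32) among those that rose. At 25 nM 28.6% rose and 28.6% fell, close to the 26.3% and 25.8% of all tested genes. At 50 nM 28.6% rose and 41.1% fell, beside 29.2% and 31.5%.

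**Figure D4:**
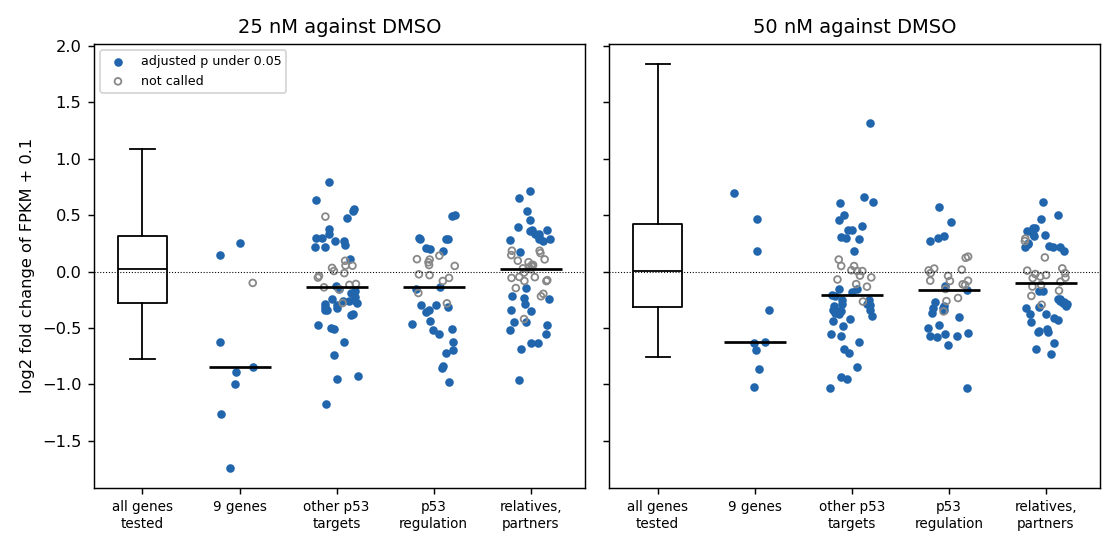
Log2 fold change of FPKM + 0.1 against DMSO (vertical axis) at 25 nM (left) and 50 nM (right); the box holds the middle of all 15541 tested genes with whiskers at the percentiles 5 and 95, and points are genes of each list, filled where called, with the list median as a bar. The 9 genes have medians of -0.85 and -0.62 and the 55 other p53 targets -0.14 and -0.21.

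Gene length and overlap were measured beside these results. MDM2, MDM4 and ZMAT3 are in the longest quartile of coding genes, whose median log2 fold change was -0.21 at 25 nM and -0.23 at 50 nM, TP53INP1 and SESN1 in the next (-0.08 and -0.14), and POLH and DDB2 in the second-shortest (0.02 and -0.08). The part of length in the changes was not tested. Strandedness was not given in the sources used here, and by GENCODE 29 only BTG2 and ZMAT3 overlap no other gene. MDM2 overlaps CPM on the other strand by 8490 bases, at 1.81, 1.65 and 1.56 FPKM in the 3 groups. It also overlaps AC025423.1 on its own strand by 436 bases, at 1.44, 2.52 and 4.06 FPKM. TP53INP1 lies whole within the span of NDUFAF6 on the other strand (1.19, 1.47 and 1.61 FPKM). POLH overlaps GTPBP2 by 10345 bases (13.8, 14.9 and 20.7 FPKM) and POLH-AS1 by 3133 bases (3.50, 2.11 and 2.62 FPKM), and DDB2 overlaps the antisense gene AC018410.2 by 1534 bases (0.647, 1.77 and 3.87 FPKM). CDKN1A, MDM4 and SESN1 overlap only non-coding genes or pseudogenes. POLH-AS1 followed POLH and AC018410.2 followed DDB2 in direction, and without strand the reads of such pairs cannot be told apart.

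In the GENCODE 29 principal transcript, the untranslated region after the coding sequence was long in MDM4 (8438 bases), ZMAT3 (7794 bases) and TP53INP1 (4507 bases), and short in DDB2 (391 bases), compared with a median of 1110 bases in 11594 coding genes. The motif ATTTA, searched on the transcript strand with overlaps counted, occurred 19 times in MDM4, 14 times each in ZMAT3 and TP53INP1, 4 times in MDM2, 3 times each in CDKN1A and POLH, 2 times in BTG2, 1 time in SESN1 and 0 times in DDB2. These counts are not scaled to the length of the region, which was 958 bases in the MDM2 transcript used. Per kilobase, the motif occurred 4.18 times in MDM2, 3.11 in TP53INP1, 2.72 in POLH, 2.25 in MDM4 and 1.95 in CDKN1A. The value was 1.80 in ZMAT3, 0.924 in BTG2 and 0.903 in SESN1. Of the 11594 genes, 85.1% had a lower value per kilobase than MDM2 and 37.1% a lower one than SESN1. Other transcripts of these genes were not searched, and their values may differ. Of the 11594 genes, 29.5% had 0 copies. BTG2 was at the median of 2 copies. The part of the motif in the changes was not tested.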

How the data were processed

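Of the deposited tables, the one named for counts contains FPKM values (30673 Ensembl genes), and its log2 equals the authors' deposited log2 FPKM table (18859 genes, no pseudocount, with positions and lengths per the file headers) within 0.005. The submitters' processing notes name hg38 as the build; the aligner, counter and annotation used by the authors are not given in the sources used here. Multiplied by gene length, FPKM came in whole steps per library for 100% of 18859 genes (tolerance 0.01), which gave fragments for depth and alternative scalings.

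The 15541 genes reaching 0.5 FPKM in 3 or more libraries were fitted with limma 3.58.1 in R 4.3.3 (lmFit, then eBayes, trend and robust both on) using log2(FPKM + 0.1), all 9 libraries, group as covariate, no replicate block; the fit was tested on simulated data. The pseudocount shrinks changes of low genes. All 9 genes were named; from each list, the 4 called genes with the smallest p in each direction at each dose, and for each of the 9 genes the 3 most correlated coding genes. Some genes that this rule names are not reported here. The members and lists were chosen with earlier results of these data known. Alternatives were pseudocounts of 1 and 0.01, other filters, scaling by fragment totals, quantile normalization, limma-voom on fragments, the 6 compared libraries alone, a replicate block and each library left out.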

Additional observations from a re-analysis of the deposited data

How the results depend on the processing

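Each of the 27 results of the 9 genes (3 comparisons) was recomputed under 15 alternatives, 405 values in all, of which 399 kept direction and side of the threshold. Of the rest, 2 lost a call: CDKN1A at 25 nM with quantile normalization, and DDB2 at 25 nM without DMSO replicate 3, each leaving 1 of the 9 genes called higher (1 to 2 over the libraries left out). Another 4 changed sign without a call, all at 50 nM against 25 nM: CDKN1A (0.035 by fragment totals and 0.10 with quantile normalization) and SESN1 (0.083 by fragment totals, and 0.015 without the 25 nM replicate 3, from a range of -0.044 to 0.015 with 1 library left out). RPS27A changed sign at 25 nM with quantile normalization (-0.0084) and at 50 nM by fragment totals (0.056) and without the 50 nM replicate 1 (0.035, in a range of -0.052 to 0.035). At 25 nM FAS changed sign without the 25 nM replicate 3 (0.021, in a range of -0.038 to 0.021), and at 50 nM by fragment totals (6.72e-05) and with quantile normalization (0.038). BBC3 changed sign at 50 nM without DMSO replicate 3 (-0.049) or the 50 nM replicate 2 (-0.037, in a range of -0.049 to 0.053). BTG4 changed sign at 25 nM with quantile normalization (-0.053) and without DMSO replicate 2 or the 25 nM replicate 3 (range -0.14 to 0.16 with 1 library left out), and at 50 nM without the 50 nM replicate 1 (range -0.29 to 0.051). Genes called at 50 nM against 25 nM numbered 3441 to 5829 with 1 library left out, 1469 to 2432 higher, with the lowest without the 50 nM replicate 1, and 1358 were lower by fragment totals against 2917. The cause was not tested. With the replicate number as a block, 7640, 9107 and 4587 genes were called in the 3 comparisons, and none of the 9 genes changed call. Deviations from the group mean had correlations of -0.0469 to 0.0793 between same-numbered libraries of different groups. Differently numbered libraries had -0.11 to 0.0596. These values cannot settle if same-numbered libraries shared a culture or day, which the labels do not state. Depth was lowest for SESN1 (631 to 1207 fragments per library), POLH (553 to 1324), MDM4 (797 to 1780) and BTG2 (459 to 1924), and at least 1260 in every library for the other 5 genes.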

Other observations

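The receptors for the death ligand TRAIL, which are p53 targets in many cells, and FAS, PMAIP1 and BBC3 were looked at after their values were seen. TNFRSF10A, a receptor with a death domain, went from 7.98 ± 0.376 FPKM in DMSO to 6.71 ± 0.284 with 25 nM and 6.29 ± 0.536 with 50 nM (SD, n = 3). It had log2 fold changes of -0.25 and -0.34. TNFRSF10B, the other death receptor, went from 71.3 ± 1.10 to 61.0 ± 3.31 and 61.4 ± 1.12 FPKM (-0.23 and -0.22). The decoy TNFRSF10D went from 12.6 ± 1.20 to 5.50 ± 0.508 and 6.44 ± 0.345 FPKM, the larger fall (-1.18 and -0.95). These genes were called lower at either dose by limma, although each of TNFRSF10A at 25 nM and TNFRSF10B at 50 nM lost the call under 1 of 15 alternatives. The decoy TNFRSF10C was low, at 0.761, 0.668 and 0.687 FPKM, and was not called (-0.16 and -0.13), though at 50 nM it was called lower with quantile normalization (-0.61, adjusted p = 0.0172). The death receptor gene FAS stood at 23.2 ± 0.0494, 23.0 ± 0.983 and 22.1 ± 0.267 FPKM and was not called (adjusted p = 0.792 and 0.146). PMAIP1, which encodes the BH3-only protein NOXA, rose at 25 nM from 18.1 ± 0.468 to 22.3 ± 0.391 FPKM (0.30, adjusted p = 0.00025) and stood at 18.8 ± 0.561 FPKM at 50 nM (0.05, adjusted p = 0.288), where it was called higher under 2 of 15 alternatives. BBC3, which encodes the BH3-only protein PUMA, was lower at 25 nM (17.4 ± 1.24 to 15.3 ± 0.613 FPKM; -0.19, adjusted p = 0.0287), a call lost under 4 of 15 alternatives, and stood at 17.5 ± 0.920 FPKM at 50 nM (adjusted p = 0.951).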
